A study of Mus musculus with 12 samples.

Results

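The 10 genes described here belong to the pathway by which leukaemia inhibitory factor (LIF) acts on mouse embryonic stem cells: the ligand Lif, the receptor chain Lifr, the kinase Jak1, the transcription factor Stat3, the feedback inhibitor Socs3, and Pim1, Pim3, Bcl3, Junb and Gbx2, which are known as genes that LIF or STAT3 can induce. They were chosen by name from 43346 gene IDs, all 10 were found, and all 10 were among the 17148 genes that passed the filter on low counts. LIF binds LIFR together with gp130 (Il6st), the receptor-bound JAK kinases phosphorylate STAT3, and STAT3 dimers enter the nucleus and switch on target genes, among them Socs3, whose protein binds the receptor and JAKs and damps the signal. In mouse embryonic stem cells this pathway is best known for holding the cells in the undifferentiated state, and both Gbx2 and the Pim kinases can support that state when overproduced.

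RNA was sequenced in 12 libraries, 3 from each of 4 groups of mouse embryonic stem cells. B6 cells were C57BL/6J and D2 cells were DBA/2J, a pair of inbred strains. B6-13D2 cells, labelled B6.D2-(rs30079041-rs51756099)/Bakr, carried a D2 segment of chromosome 13 on the B6 background, and D2-13B6 cells, labelled D2.B6-(rs29224292-rs13469455)/Bakr, carried a B6 segment on the D2 background. The series design text gives another end marker for the D2-13B6 segment than the sample labels do. All groups grew in serum medium that already contained LIF, the MEK inhibitor PD0325901 and the GSK3 inhibitor CHIR99021, so no group was without the ligand. Per the labels' protocols each strain was sampled as separate cultures of a single line, so a strain and its line cannot be told apart, and p-values measure the spread between cultures of a line. B6 replicate 3 carries another line name than the other B6 libraries, the line named in the D2 titles differs from the one in their cell line field, and the titles speak of technical replicates.

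Values are given as CPM, read counts scaled to a common library size with TMM factors, from libraries of 22184196 to 36411799 expected counts. Stem cell identity was checked with 8 markers (Pou5f1, Sox2, Nanog, Zfp42, Esrrb, Klf2, Fgf4, Tdgf1), all present in every library, with a summed level of 3430 to 3630 CPM in B6, 2560 to 2570 in D2, 3950 to 4130 in B6-13D2 and 3120 to 3150 in D2-13B6. Markers of fibroblasts, the cell type commonly used as feeder layer, were also abundant: 8 of 8 (Col1a1, Col1a2, Col3a1, Thy1, Pdgfrb, Lum, Dcn, Postn) passed the filter, and their summed level was 9380 to 10200 CPM in B6, 14200 to 17000 in D2, 3100 to 3180 in B6-13D2 and 7730 to 8050 in D2-13B6. Col1a1 and Col1a2 made up most of it, while Dcn and Lum stayed between 0.491 and 5.58 CPM in every library. No fibroblast or stem cell marker was at 0. No Pou5f1 value was whole, and 83.3% of the Nanog and 58.3% of the Tdgf1 values were. The stem cell marker sum, and any scale relative to it, is uncertain to that extent. The labels name no feeder cells. In bulk RNA, fewer cells of a type and less RNA per cell cannot be told apart.

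STAT dimers are known to bind a palindrome of the half-sites TTC and GAA, so the 250 bases before the RefSeq start of the members were searched for it. The search covered windows from 250 bases before to 50 after each start (RefSeq, GRCm38.p6; 12 windows for the 10 genes), and both motifs are palindromes, so 1 strand covers both. TTCNNNGAA occurred in 1 of the 12 windows (8.33%), that of Socs3, against 8.30% of all 32851 promoter windows; the stricter TTCCNGGAA, each match of which is also a TTCNNNGAA match, occurred in none of the 12 and in 1.15% of all windows. A share so near the background is no result about the members. The upstream part of the Socs3 window (chr11:117969367-117969616, minus strand) is shown because it holds the match, with the match in capitals at chr11:117969512-117969520, which starts 154 bases before the RefSeq start. The same part of the Bcl3 window (chr7:19822756-19823005, minus strand) is shown because Bcl3 rose most among the 10 genes in B6-13D2; it has no match. These are reference sequences, read 5′ to 3′ along the gene, and not those of the cell lines. GENCODE M21 starts Socs3 at 117970047, upstream of the RefSeq start used here.
Socs3: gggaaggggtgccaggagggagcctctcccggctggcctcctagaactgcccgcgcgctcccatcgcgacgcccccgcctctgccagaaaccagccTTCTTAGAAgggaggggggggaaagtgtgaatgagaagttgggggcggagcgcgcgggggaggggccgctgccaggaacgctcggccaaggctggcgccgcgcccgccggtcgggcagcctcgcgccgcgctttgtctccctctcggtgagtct
Bcl3: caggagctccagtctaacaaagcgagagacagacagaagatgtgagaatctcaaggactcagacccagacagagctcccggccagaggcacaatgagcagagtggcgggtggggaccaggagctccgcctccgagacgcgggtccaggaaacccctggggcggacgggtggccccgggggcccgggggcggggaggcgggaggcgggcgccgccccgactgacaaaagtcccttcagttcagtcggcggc

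Per length of exon, the genes fell in the order of their roles only in part. In B6 the level per kilobase of merged exon (CPM per kb) was 40.9 for Pim3, 40.2 for Pim1, 28.3 for Junb, 20.2 for Socs3, 17.8 for Stat3, 14.8 for Jak1, 13.7 for Bcl3, 8.87 for Gbx2, 4.82 for Lif and 4.66 for Lifr. On this measure the targets Pim1, Pim3 and Junb were higher than Jak1 and Stat3, and the ligand and its receptor chain were the lowest. Merged exons cover all annotated exons of a gene, 9527 bases for Stat3 and 7227 for Jak1 against 3362 for Pim1 and 2301 for Junb. The ranking depends on that length, as in CPM alone Stat3 was the highest in B6, at 170. In D2 the highest was Junb at 46.5 CPM per kb, in B6-13D2 it was Pim3 at 55.3 and in D2-13B6 it was Pim1 at 33.7.

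**Figure D1:**
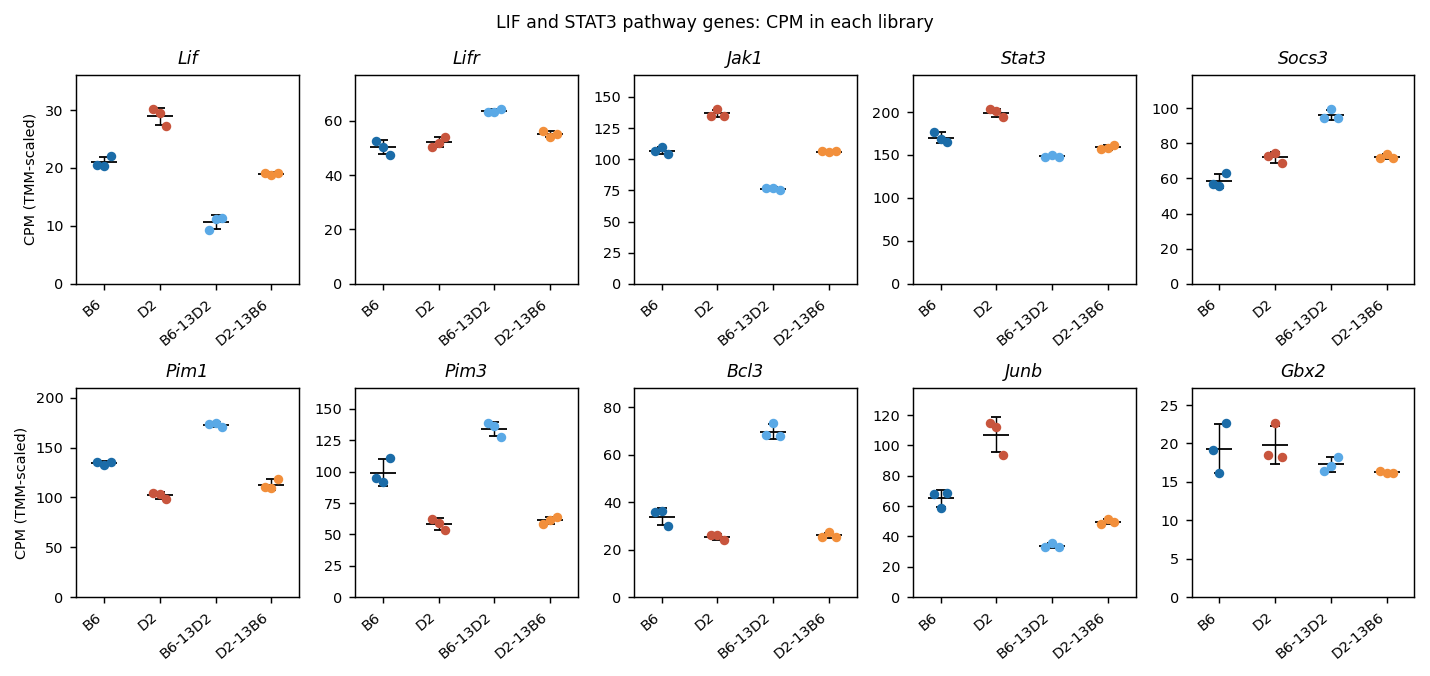
CPM of each of the 10 genes (vertical axes, from 0) in the 3 libraries of each group (points), with the mean and SD (black bars). Lif, Jak1, Stat3 and Junb had their highest mean in D2 and their lowest in B6-13D2, whereas Lifr, Socs3, Pim1, Pim3 and Bcl3 had their highest mean in B6-13D2.

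Lif encodes the cytokine itself (chromosome 11, 4257557 to 4272514). Its transcript stood at 20.5, 20.4 and 22 CPM in B6, 30.1, 29.4 and 27.2 in D2, 9.24, 11.2 and 11.4 in B6-13D2, and 19.2, 18.7 and 19.1 in D2-13B6. D2 was highest and B6-13D2 lowest, and neither overlapped any other group. It rose in D2 against B6 by 0.47 on the log2 scale (SE 0.0669, edgeR adjusted p 1.04e-05). Against the background strain, it fell by 0.98 in B6-13D2 (SE 0.0748, edgeR adjusted p 3.17e-09) and fell by 0.61 in D2-13B6 (SE 0.0648, adjusted p 2.77e-07). B6 and D2-13B6, the neighbours in the middle of the order, were not called different (adjusted p 0.0796, edgeR). Lif therefore fell in each congenic line relative to the strain of its background, to 0.507 and 0.655 of the level there.

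Lifr encodes the LIF-specific receptor chain (chromosome 15, 7090614 to 7197489). It varied within a narrow range: 52.6, 50.4 and 47.5 CPM in B6, 50.3, 51.7 and 53.9 in D2, 63.2, 63.0 and 64.1 in B6-13D2, and 56.1, 53.9 and 55 in D2-13B6. The B6-13D2 libraries lay above all others. Against B6 it rose in B6-13D2 by 0.34 on the log2 scale (SE 0.043, edgeR adjusted p 2.32e-06), while the changes of D2 against B6 (0.05, SE 0.0439, adjusted p 0.339) and of D2-13B6 against D2 (0.08, SE 0.0422, adjusted p 0.106) were not called. With scaling factors computed without chromosome 11 genes the last became 0.17 and was called.

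Jak1 encodes a kinase bound to the gp130 receptor family (chromosome 4, 101152367 to 101265282). It measured 107, 110 and 104 CPM in B6, 135, 140 and 135 in D2, 77.2, 76.9 and 75.2 in B6-13D2, and 107, 106 and 107 in D2-13B6. D2 lay above B6 and D2-13B6, which overlapped, and B6-13D2 lay below. It rose in D2 against B6 by 0.35 on the log2 scale (SE 0.0339, edgeR adjusted p 8.06e-08), fell by 0.48 in B6-13D2 against B6 (SE 0.0349, adjusted p 1.43e-09) and fell by 0.36 in D2-13B6 against D2 (SE 0.0333, adjusted p 4.41e-08). B6 and D2-13B6 differed by -0.01 (SE 0.0339), which was not called (adjusted p 0.862). With scaling factors computed without chromosome 11 genes this pair was called, with D2-13B6 higher (edgeR adjusted p 0.046).

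Stat3 (chromosome 11, 100885098 to 100939540), the transcription factor at the centre of the pathway, moved by small amounts. It had 177, 168 and 165 CPM in B6, 203, 201 and 194 in D2, 148, 150 and 148 in B6-13D2, and 157, 158 and 162 in D2-13B6. No 2 groups overlapped. It rose in D2 against B6 by 0.23 (SE 0.0348, edgeR adjusted p 1.80e-05), fell by 0.19 in B6-13D2 against B6 (SE 0.035, adjusted p 0.000132) and fell by 0.33 in D2-13B6 against D2 (SE 0.0344, adjusted p 2.48e-07). The step from B6 down to D2-13B6 (adjusted p 0.0248, edgeR) was lost with RLE size factors (adjusted p 0.343), DESeq2 (0.379), no filter (0.153) and scaling without chromosome 11 (0.905), and the step from D2-13B6 down to B6-13D2 (0.0195) was lost with a floor of 1 on the mean CPM (0.0799). The extremes, D2 and B6-13D2, differed by 0.42 on the log2 scale (SE 0.0347), B6-13D2 lower.

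Socs3 (chromosome 11, 117966079 to 117970047) is the feedback inhibitor and among the genes most directly induced by STAT3. It had 56.8, 55.7 and 63.0 CPM in B6, 72.8, 74.4 and 68.6 in D2, 94.6, 99.3 and 94.6 in B6-13D2, and 71.7, 74.1 and 71.5 in D2-13B6. B6 was lowest, B6-13D2 highest, and D2 and D2-13B6 overlapped. Against B6 it rose by 0.72 on the log2 scale in B6-13D2 (SE 0.0468, edgeR adjusted p 3.67e-10) and by 0.30 in D2 (SE 0.0478, adjusted p 3.16e-05), but its change was 0.01 (SE 0.0458, adjusted p 0.904) in D2-13B6 against D2. Socs3 was thus 1.64-fold higher in B6-13D2 than in B6 while the Stat3 transcript there was at 0.875 of its B6 level.

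Pim1 (chromosome 17, 29490753 to 29496112) and Pim3 (chromosome 15, 88862186 to 88865726) encode related serine/threonine kinases. Pim1 had 136, 133 and 136 CPM in B6, 105, 103 and 98.2 in D2, 174, 175 and 171 in B6-13D2, and 111, 110 and 119 in D2-13B6, with no overlap between groups. Its log2 fold change was -0.40 (SE 0.0386, edgeR adjusted p 8.15e-08) in D2 against B6, 0.36 (SE 0.0376, adjusted p 2.15e-07) in B6-13D2 against B6 and 0.15 (SE 0.0383, adjusted p 0.00301) in D2-13B6 against D2. It was the only one of the 10 genes called higher in D2-13B6 than in D2 with the main scaling. Pim3 had 94.6, 91.6 and 111 CPM in B6, 62.2, 59.1 and 53.2 in D2, 139, 136 and 128 in B6-13D2, and 58.7, 61.3 and 64.2 in D2-13B6, so the groups on the D2 background overlapped at the low end. Its log2 fold change was -0.77 (SE 0.0675, edgeR adjusted p 2.73e-08) in D2 against B6, 0.44 (SE 0.0639, adjusted p 1.23e-05) in B6-13D2 against B6 and 0.07 (SE 0.0679, adjusted p 0.374) in D2-13B6 against D2. No Pim1 value was whole and 488 of its 3362 exonic bases lie opposite an antisense gene, Gm26885, so Pim1 values are uncertain, as it is not stated whether counting used the strand.

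Bcl3 (chromosome 7, 19808462 to 19822770), an atypical member of the IκB family that acts in the nucleus, showed the largest rise. It had 35.8, 36.1 and 29.9 CPM in B6, 26, 26.3 and 24.1 in D2, 68.2, 73.5 and 67.7 in B6-13D2, and 25.4, 27.3 and 25.5 in D2-13B6. The B6-13D2 libraries lay at 2.06 times the B6 level, and D2 and D2-13B6 overlapped. The log2 fold change against B6 was 1.04 in B6-13D2 (SE 0.0622, edgeR adjusted p 1.06e-10) and -0.41 in D2 (SE 0.0681, adjusted p 5.12e-05), and it was 0.03 (SE 0.0674, adjusted p 0.711) in D2-13B6 against D2. Of its 2475 exonic bases, 161 overlap the antisense gene Gm16175.

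Junb (chromosome 8, 84974484 to 84978718), a subunit of the AP-1 transcription factor that also responds to growth factors and serum, went the opposite way. It had 67.9, 58.8 and 68.6 CPM in B6, 115, 112 and 93.7 in D2, 33.2, 35.9 and 33.0 in B6-13D2, and 48.1, 51.3 and 49.6 in D2-13B6. All 4 groups were separate, with D2 at the top and B6-13D2 at the bottom. It rose in D2 against B6 by 0.72 (SE 0.0683, edgeR adjusted p 7.10e-08), fell by 0.93 in B6-13D2 against B6 (SE 0.0742, adjusted p 5.33e-09) and fell by 1.11 in D2-13B6 against D2 (SE 0.0679, adjusted p 2.05e-10). Of its 2301 exonic bases, 173 overlap Prdx2 on the other strand.

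Gbx2 (chromosome 1, 89927956 to 89931179), a homeobox gene, had the least separation. It had 19.2, 16.2 and 22.6 CPM in B6, 18.5, 22.7 and 18.2 in D2, 16.4, 17.1 and 18.3 in B6-13D2, and 16.4, 16.2 and 16.2 in D2-13B6. The replicates of B6 and of D2 spread more widely than the groups differed. In D2-13B6 against D2 its log2 fold change was -0.30 (SE 0.098), which was called (edgeR adjusted p 0.0152), whereas it was -0.18 and not called without D2 replicate 2, and -0.21 and not called with scaling factors computed without chromosome 11 genes. Those of D2 against B6 (0.05, SE 0.10, adjusted p 0.680) and of B6-13D2 against B6 (-0.16, SE 0.101, adjusted p 0.188) were not called, but without B6 replicate 2 the latter became -0.27 and was called. No Gbx2 value was whole, and 946 of its 2177 exonic bases overlap D130058E05Rik on the other strand, so Gbx2 is uncertain.

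The first question is how the parental lines differ. Of the 10 genes, 8 were called, 5 higher in D2 (Lif, Jak1, Stat3, Socs3, Junb) and 3 lower (Pim1, Pim3, Bcl3), where 60% of all tested genes were called, 29.8% higher and 30.3% lower. None passed an absolute log2 fold change of 1, as 11.3% of all genes did while called. The median absolute log2 fold change was 0.378 for the members and 0.327 for all tested genes. The ligand, kinase and STAT3 were thus higher in D2 together with Socs3 and Junb, while the Pim kinases and Bcl3 were lower. The summed fibroblast markers were 1.63-fold higher in D2 and the summed stem cell markers 1.37-fold lower, with 8 of 8 and 7 of 8 markers called in these directions; their part in the members' differences was not tested. Relative to the summed stem cell markers, a scale chosen after the marker levels had been seen, the log2 difference was 0.05 for Pim1 and 0.04 for Bcl3, no longer below 0, and -0.32 for Pim3. On that scale the other values were larger than on the CPM scale: 0.92 for Lif, 0.80 for Jak1, 0.68 for Stat3, 0.75 for Socs3 and 1.17 for Junb, and 0.50 for both Lifr and Gbx2, which were not called on the CPM scale.

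B6-13D2 set against B6 shows what changed with the introduced D2 segment, together with whatever else separates those cultures. Here 9 of the 10 genes were called, 5 higher in B6-13D2 (Lifr, Socs3, Pim1, Pim3, Bcl3) and 4 lower (Lif, Jak1, Stat3, Junb). The background was 58.3% of all tested genes, 25.4% higher and 32.9% lower. The share of all called genes that were higher was 43.5%, but 52.0% with RLE size factors and 51.9% with DESeq2, while the members' split was the same with each. The median absolute log2 fold change was 0.460 for the members and 0.324 for all tested genes, and Bcl3 alone passed an absolute log2 fold change of 1, which 14.5% of all genes passed while called. Upstream components other than Lifr were lower and the targets other than Junb and Gbx2 were higher. The summed fibroblast markers were 3.07-fold lower in B6-13D2, with 8 of 8 markers called lower, and the summed stem cell markers 1.15-fold higher, with 8 of 8 called higher. Relative to the stem cell markers the 5 genes that rose remained above 0, from 0.14 for Lifr to 0.84 for Bcl3.

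D2-13B6 set against D2 is the reciprocal case, and it shares its D2 libraries with the parental comparison, as the former comparison shares B6. Here 6 of the 10 genes were called, 1 higher in D2-13B6 (Pim1) and 5 lower (Lif, Jak1, Stat3, Junb, Gbx2), against 57.3% of all tested genes, 27.6% higher and 29.7% lower. With scaling factors computed without chromosome 11 genes it was 2 higher and 4 lower, and the share of all called genes that were higher went from 48.2% to 60.0%. The median absolute log2 fold change was 0.223 for the members and 0.307 for all tested genes. The summed fibroblast markers were 1.99-fold lower in D2-13B6, with 7 of 8 called lower, and the summed stem cell markers 1.22-fold higher, with 7 of 8 called higher. Junb alone passed an absolute log2 fold change of 1, as 8.96% of all genes did while called. Relative to the stem cell markers Pim1 stood at -0.14. In neither congenic comparison was the part of the marker levels tested.

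**Figure D2:**
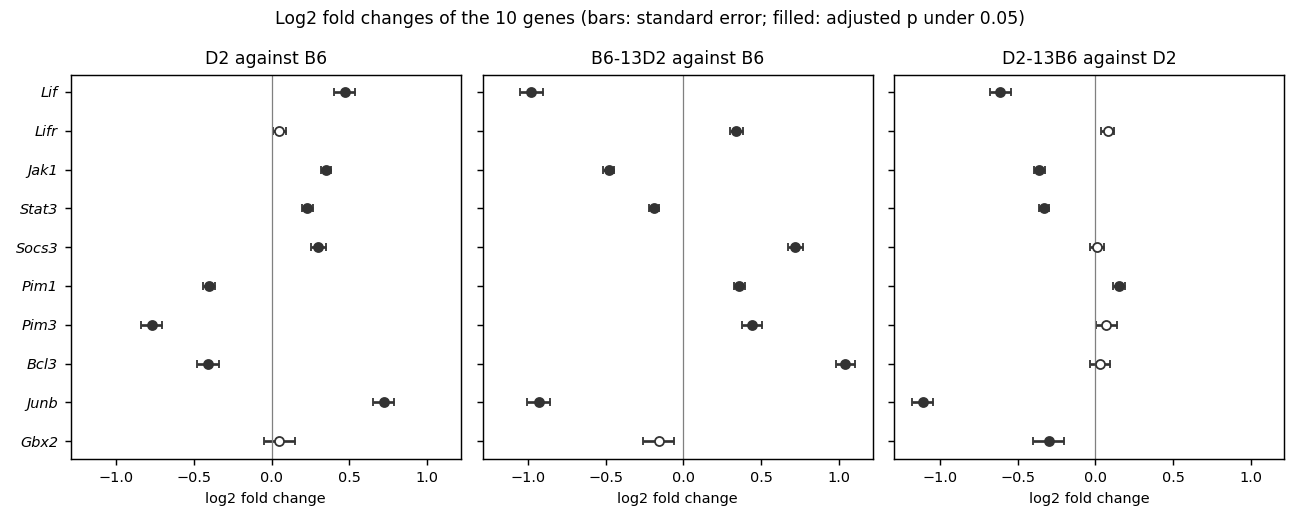
Log2 fold changes (horizontal axes) of the 10 genes in the parental comparison and in each congenic line against the strain of its background; bars are standard errors and filled points had an edgeR adjusted p under 0.05. Bcl3 at 1.04 and Lif at -0.98 stand farthest from 0 in B6-13D2 against B6, and Junb at -1.11 in D2-13B6 against D2.

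If a transcript followed the allele of the chromosome 13 segment, it would move in opposite directions in the congenic lines. None of the 10 genes did so: 0 were called in both congenic comparisons with opposite signs, by edgeR at an adjusted or at an unadjusted p under 0.05 and by DESeq2, where 7.33% of all tested genes met the edgeR rule, a share near which 0 of 10 is no result about the members. On scales that carry no test the signs did differ for some. Relative to the summed stem cell markers, the B6-13D2 and D2-13B6 values were 0.14 and -0.21 for Lifr, 0.52 and -0.28 for Socs3, 0.16 and -0.14 for Pim1, 0.24 and -0.22 for Pim3, and 0.84 and -0.26 for Bcl3. That scale takes the same amount from every gene, 0.20 for the B6-13D2 line and 0.29 for the D2-13B6 line. A small rise in the D2-13B6 line thus turns negative by the shift alone. Relative to the chromosome 11 median, likewise a common shift, Socs3 stood at 0.72 and -0.39. The share of all tested genes with opposite signs on these scales was not computed, so the signs are no result about the members. On the CPM scale 5 of the 10 were called in both congenic comparisons with the same sign (Lif, Jak1, Stat3, Junb lower, Pim1 higher). Of all tested genes, 32.2% met that rule. The difference in the D2 segment's effect between backgrounds, which is the sum of the changes in both congenic lines, was called for 10 of the 10 genes, above 0 for 5 and below 0 for 5; Gbx2 lost its call with scaling factors computed without chromosome 11 genes. The background there was 64.5%, with 31.1% higher and 33.4% lower, and 3 of the 10 (Lif, Junb, Bcl3) passed an absolute log2 value of 1, as 25.6% of all genes did while called. The members lie on chromosomes 1, 4, 7, 8, 11, 15 and 17, none on chromosome 13.

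**Figure D3:**
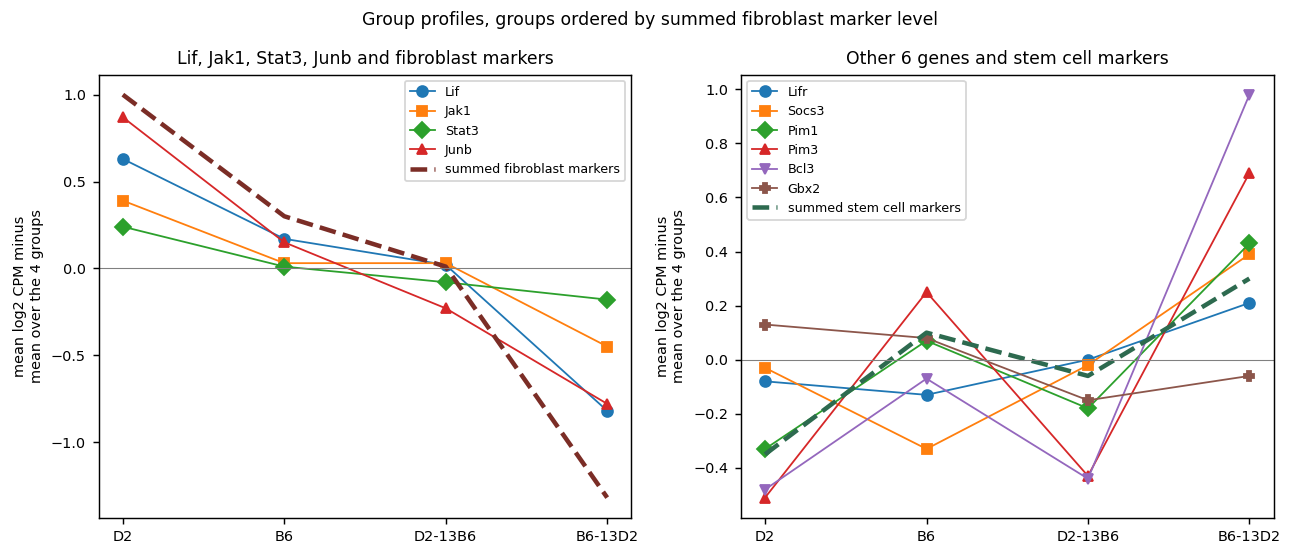
Mean log2 CPM of each group minus the mean over the 4 groups (vertical axes), with the groups ordered by the summed fibroblast markers; dashed lines are the summed fibroblast markers (left) and the summed stem cell markers (right). Lif runs from 0.63 in D2 to -0.82 in B6-13D2 and the fibroblast markers from 1.00 to -1.32, while Bcl3 peaks at 0.98 in B6-13D2; the split of the genes between the panels was made after their profiles were seen.

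Ranking the 4 group means of each gene gives 30 pairs of neighbours, of which 20 were called different. The share of such neighbours called over all tested genes was not computed, so the count is no result about the members. The pairs that are no main comparison have their own background: 74.6% of all tested genes were called between B6-13D2 and D2, 59% between D2-13B6 and B6 and 70.2% between both congenic lines, with 9, 8 and 9 of the 10 members. The 8 between D2-13B6 and B6 became 6 with DESeq2 or RLE size factors, and 7 with the other scaling, the other filters or the replicate block. The means of Lif, Jak1, Stat3 and Junb lay in the order D2, B6, D2-13B6, B6-13D2, which is also the order of the summed fibroblast markers. Single markers split at the middle pair. Col3a1 (0.16), Dcn (1.09), Lum (0.52) and Postn (0.45) were called higher in D2-13B6 than in B6. Col1a1 (-0.30), Col1a2 (-0.36), Thy1 (-0.33) and Pdgfrb (-0.41) were called lower. The middle pair of the order, B6 and D2-13B6, was not called different for Lif or Jak1. For Stat3 its call was lost with DESeq2, RLE size factors, no filter and scaling without chromosome 11 genes. With the last scaling the pair was called for Jak1, with D2-13B6 higher (edgeR adjusted p 0.046). Within D2, replicate 3 had the lowest fibroblast marker sum (14200 CPM, against 17000 and 16000 in replicates 1 and 2). That library was lowest of D2 for Lif (27.2 CPM), Stat3 (194 CPM), Junb (93.7 CPM) and Socs3 (68.6 CPM). The same held for Pim1 (98.2 CPM), Pim3 (53.2 CPM), Bcl3 (24.1 CPM) and Gbx2 (18.2 CPM), while Lifr (53.9 CPM) was highest there. Jak1 had 135, 140 and 135 CPM in the D2 replicates. Within B6, replicate 1 had the highest marker sum (10200 CPM) and the highest Stat3 (177 CPM). Lif (22 CPM) and Junb (68.6 CPM) were highest in B6 replicate 3, which carries another line name. Within B6-13D2, replicate 1 had the highest marker sum (3180 CPM) and the lowest Lif (9.24 CPM). Such ranks of 3 libraries are a description and carry no test. Pim1, Pim3 and Bcl3 shared another order, B6-13D2, B6, D2-13B6, D2, which is that of the summed stem cell markers. The last step was not called for Pim3 or Bcl3. Socs3 and Lifr kept neither order. B6 had the lowest mean of both, but for Lifr neither D2-13B6 and D2 nor D2 and B6 were called different with the main scaling. What part the marker levels have in these orders was not tested, since group and marker level cannot be told apart here.

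Lif, Stat3 and Socs3 lie on chromosome 11, whose genes were raised in D2-13B6. Of 1386 tested genes on that chromosome, 58.9% were called higher in D2-13B6 than in D2 and 13.5% lower, against 24.6% and 31.5% of 14950 genes on the other autosomes, and the median log2 fold change was 0.393 against -0.026. Stat3, Socs3 and Lif did not show that rise. Stat3 was at -0.33, with 12.9% of the other genes of the chromosome below it, and -0.71 from the median of the 224 tested genes starting within 5 Mb of it (median 0.387). Socs3 was at 0.01, which is -0.39 from the chromosome's median and -0.37 from the median of the 198 genes within 5 Mb (0.374), with 23.5% of the chromosome's genes and 24.7% of those within 5 Mb below it. Lif was at -0.61, which is -1.0 from the chromosome's median and -1.03 from that of the 94 genes within 5 Mb (0.416). The D2-13B6 libraries gave the same picture singly, with a chromosome 11 excess over the other autosomes of 0.408, 0.413 and 0.424 and a Stat3 change of -0.35, -0.33 and -0.30. In B6-13D2 against B6 the chromosome's median was near 0 and Socs3 was 0.72 above it.

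**Figure D4:**
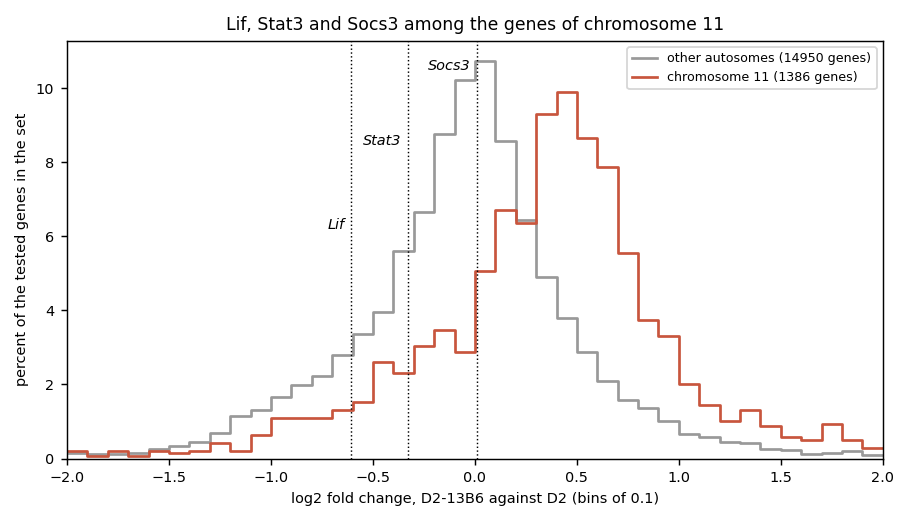
Distribution of the log2 fold change of D2-13B6 against D2 (horizontal axis, bins of 0.1) over the tested genes of chromosome 11 and of the other autosomes, as percent of each set (vertical axis); dotted lines mark Lif, Stat3 and Socs3. All 3 lie left of the chromosome 11 median of 0.393; 18 and 214 genes beyond 2 in either direction are outside the axis.

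The wider pathway was taken from lists of ligands, receptors, kinases, inhibitors and targets, which also hold members: Lif is among the cytokines, Lifr among the receptors, Jak1 and Stat3 among the JAK and STAT genes and Socs3 among the negative regulators. The counts called in each list are to be read against the 60%, 58.3% and 57.3% of all tested genes called in D2 against B6 and in the B6-13D2 and D2-13B6 lines against their background strains. A gene given as the highest or lowest of a list is so among its called members whose mean CPM reached 1. Among 8 tested cytokines of the LIF and interleukin-6 family, 5 were higher and 0 lower in D2 than in B6, 1 was higher and 5 were lower in B6-13D2 than in B6, and 1 was higher and 5 were lower in D2-13B6 than in D2. Their medians were 0.43, -1.08 and -0.66, beside 0.012, -0.035 and 0.000 for all tested genes. The summed fibroblast markers moved with the list, by 0.70, -1.62 and -0.99 on the log2 scale with 8, 8 and 7 of 8 markers called, and their part in it was not tested. In B6-13D2 against B6 the lowest was Clcf1, a ligand of the CNTF receptor, at -1.61 (SE 0.106). Il11 was the highest in D2 against B6 at 1.07 (SE 0.263) and Clcf1 the lowest of those called at 0.39 (SE 0.0881). Osm, for oncostatin M, was the 1 cytokine called higher in each congenic line, by 0.62 (SE 0.0876) and 0.98 (SE 0.0826).

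Of 7 receptor genes, 4 were higher and 0 lower in D2 than in B6, 3 were higher and 3 lower in B6-13D2 than in B6, and 0 were higher and 4 lower in D2-13B6 than in D2; the 4 of 7 called in D2 against B6 are near the 60% of all genes. Osmr, the oncostatin M receptor chain that can pair with gp130, averaged 64.1 CPM ± 1.37 (SD, n = 3) in D2, 44.8 ± 2.07 in B6, 39.6 ± 1.56 in D2-13B6 and 15.5 ± 0.749 in B6-13D2. Against B6 it fell by 1.54 in B6-13D2 (SE 0.0544), with an edgeR adjusted p of 7.19e-14. Its order was again that of Lif and of the summed fibroblast markers, though not of each single marker. Il6st, for gp130 (chromosome 13, 112464070 to 112510086), averaged 167 CPM ± 1.02 in D2, 139 ± 3.55 in D2-13B6, 133 ± 3.08 in B6 and 85.7 ± 1.89 in B6-13D2. It was the lowest of the receptors called in D2 against B6, at 0.33 (SE 0.0338). The segment ends are given as marker names without positions, so whether Il6st lies inside the segment was not determined. Il6ra changed by 0.72 (SE 0.0883) in D2 against B6, by 0.80 (SE 0.0872) in B6-13D2 against B6 and by -0.20 (SE 0.0797) in D2-13B6 against D2; the last call was lost with DESeq2 and when any of several single libraries was left out. Il11ra1 was the lowest receptor in D2-13B6 against D2, at -0.80 (SE 0.0759).

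Of 11 JAK and STAT genes, 5 were higher and 2 lower in D2 than in B6, 4 were higher and 6 lower in B6-13D2 than in B6, and 3 were higher and 6 lower in D2-13B6 than in D2; the 7 of 11 called in D2 against B6 are near the 60% of all genes. Stat2, which serves interferon signalling, rose in each congenic line, by 0.74 (SE 0.0549) and 0.64 (SE 0.0558), while Jak1 and Stat3 fell. Jak2 was the lowest in B6-13D2 against B6 at -0.72 (SE 0.0764) and Jak3, which has no whole values and is uncertain, the lowest in D2-13B6 against D2 at -0.53 (SE 0.0804). In D2 against B6 Stat4 was the lowest at -1.66 (SE 0.135). Of 16 negative regulators, 5 were higher and 7 lower in D2 than in B6, 7 were higher and 3 lower in B6-13D2 than in B6, and 5 were higher and 4 lower in D2-13B6 than in D2. The 10 of 16 and 9 of 16 called in the congenic lines are near the 58.3% and 57.3% of all genes. Socs3 was the highest of them in B6-13D2 against B6, and Socs5 the lowest in B6-13D2 and in D2-13B6 against their background strains, at -0.96 (SE 0.0683) and -0.71 (SE 0.0613). Socs7 was the highest in D2-13B6 against D2 at 0.62 (SE 0.0685). In D2 against B6 Socs2 was the highest at 0.43 (SE 0.0609) and the phosphatase gene Ptpn6 the lowest at -0.59 (SE 0.0734).

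Of 13 genes known as LIF or STAT3 targets, 6 of them members, 5 were higher and 7 lower in D2 than in B6, 7 were higher and 4 lower in B6-13D2 than in B6, and 4 were higher and 5 lower in D2-13B6 than in D2, beside 60%, 58.3% and 57.3% of all genes called. Tfcp2l1, a transcription factor that acts downstream of STAT3 in these cells, averaged 1080 CPM ± 39.1 in B6-13D2, 856 ± 24.0 in B6, 500 ± 5.18 in D2-13B6 and 435 ± 2.04 in D2. Its order was that of Pim1, Pim3 and Bcl3, with log2 fold changes of -0.98 (SE 0.0335), 0.34 (SE 0.0329) and 0.20 (SE 0.0332) in the 3 comparisons. Myc and Fos, which many growth signals induce, went with Junb: against B6, Myc fell by 1.77 in B6-13D2 (SE 0.0576), and against D2, Fos fell by 1.75 in D2-13B6 (SE 0.0451), with edgeR adjusted p of 2.34e-14 for Myc and 1.20e-14 for Fos. Cebpb was the highest in D2 against B6 at 1.40 (SE 0.268), with no whole values. Among paralogs of the members, Jun changed by 0.67 (SE 0.0495), -1.16 (SE 0.0535) and -0.89 (SE 0.0489), with Junb. Jund changed by 0.37 (SE 0.0659), 0.24 (SE 0.066) and -0.24 (SE 0.0647), in Junb's direction in the first and last. Gbx1, below the CPM floor, was called in B6-13D2 against B6 at 1.57 (SE 0.347). No Jund value was whole, so it is uncertain. Pim2 changed by 0.70 (SE 0.072) in D2-13B6 against D2 and by -0.19 (SE 0.078) in D2 against B6, a call that was lost with DESeq2 and when any of several single libraries was left out.

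The genes whose 4 group means lay closest to those of Socs3 were sought among 11556 genes whose mean CPM reached 4, by the root mean square difference in log2 CPM after subtracting each gene's own mean. They were Cdkn2d (0.021), Tmem268 (0.033) and Vegfa (0.048). Vegfa, for vascular endothelial growth factor A, averaged 102 CPM in B6-13D2, 76.3 in D2-13B6, 74.0 in D2 and 65.8 in B6. For Stat3 the closest were Il17rc (0.008), Gemin7 (0.010) and 2310009B15Rik (0.010), none of them on chromosome 11. The likeness rests on 4 group means and is a description.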

How the data were processed

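RNA from 12 libraries was analysed, 3 for every strain or congenic line, with groups and replicate numbers taken from the sample titles. The authors deposited expected counts, that is, estimated read counts per Ensembl gene that need not be whole, made with EMASE per the file's title. The submitters' processing notes name Bowtie 1.0.0, edgeR 3.34.1 and mm10, without their roles; the annotation and the use of strand are not given in the sources used here. Of all values, 88.1% were whole to within 1e-06. Symbols, positions and merged exon lengths came from GENCODE M21 (GRCm38) for 42462 of 43346 IDs, and promoter sequences from RefSeq (GRCm38.p6).

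After rounding, edgeR 4.0.16 (R 4.3.3) was run with the filterByExpr default minimum of 10 counts, TMM, a quasi-likelihood fit of 4 group means over all 12 libraries, and Benjamini-Hochberg adjustment over the 17148 tested genes within each comparison. A gene with an adjusted p under 0.05 is said to be called, and to have risen or fallen. Each standard error was derived from the log2 fold change and its F statistic. Library totals of 22184196 to 36411799 leave counting error small for these genes. Between replicates, chi-square per degree of freedom lay between 1.94 and 7.98, above sampling noise in every pair. The congenic column names have a prefix that parental ones lack; a batch it may record and the congenic state cannot be told apart. Counts were also simulated for D2 against B6 with a dispersion of 0.01, above the common dispersion of 0.001834 in the data. Of 16817 genes tested there, 96 had been changed by 0.5 and 99 by 1 on the log2 scale. Of these changes edgeR recovered 52.1% and 89.9%, with 6 false calls. In the data 60% of all tested genes were called in that comparison. The rates therefore hold for the simulated spread and share of changed genes, not for the data's own.

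Alternatives were DESeq2 1.42.0, RLE size factors, TMM without chromosome 11 genes, no filter, a floor of 1 on the mean CPM, a floor of 1 on the size of the log2 fold change, a block for the replicate number, a fit of the compared groups alone, and omission of single libraries. Beside the 10 members, the text names from each list the highest and lowest called gene with a mean CPM of at least 1 in each of the 3 comparisons, some of which are not reported here. The members, lists and tests were chosen with earlier results of these data known.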

Additional observations from a re-analysis of the deposited data

Results flagged for a closer look

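The segment effect differed between the B6 and the D2 background for all 10 genes by edgeR, where 64.5% of all tested genes were called. The design makes this contrast the same as both congenic lines minus both parental strains, so anything the congenic libraries share enters it. On the log2 scale, summed over the pairs, it was -1.59 for Lif, 0.42 for Lifr, -0.85 for Jak1, -0.52 for Stat3, 0.72 for Socs3, 0.51 for Pim1, 0.51 for Pim3, 1.07 for Bcl3, -2.04 for Junb and -0.46 for Gbx2. The sum does not say that a gene moved in each line: Gbx2 was not called in B6-13D2 against B6, and Lifr, Socs3, Pim3 and Bcl3 were not called in D2-13B6 against D2. For Gbx2 the call was lost with scaling factors computed without chromosome 11 genes, at -0.33. That scaling moved the median of all genes in this contrast by 0.131.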

How the results depend on the processing

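Of 750 recomputed log2 fold changes of the 10 genes, leaving aside the minimum fold and the relative scales, 737 kept their direction and their side of the threshold. Counts of called members without single libraries ranged from 8 to 8 for D2 against B6, from 9 to 10 for the B6-13D2 line, from 5 to 6 for the D2-13B6 line and from 10 to 10 for the difference between backgrounds; counts over all genes ranged from 9317 to 10324, 9314 to 10323, 8795 to 9984 and 10600 to 11113. Under these settings the reversals were those of values near 0 that were not called: Socs3 in D2-13B6 against D2 was -0.03 with a mean CPM of at least 1, -0.03 without D2 replicate 3 and -0.01 without D2-13B6 replicate 2, Bcl3 there was -0.01 under each of these settings, and Gbx2 in D2 against B6 was -0.06 without B6 replicate 2 and -0.07 without D2 replicate 2. Over all single libraries left out, these ranged from -0.03 to 0.03 for Socs3, from -0.01 to 0.06 for Bcl3 and from -0.07 to 0.18 for Gbx2. A floor of 1 on the size of the log2 fold change left 0, 1, 1 and 3 members and 1937, 2478, 1537 and 4392 of all genes in the 4 comparisons, in the order above, and 1 of the 20 called steps in the members' order of groups. Relative to the chromosome 11 median, Socs3 in D2-13B6 against D2 was -0.39. Relative to the summed stem cell markers, a scale chosen after seeing the data, the log2 differences in D2 against B6 were 0.05 for Pim1 and 0.04 for Bcl3, and in D2-13B6 against D2 they were -0.21 for Lifr, -0.28 for Socs3, -0.14 for Pim1, -0.22 for Pim3 and -0.26 for Bcl3. With the replicate number as a block, 8, 9, 6 and 10 members and 10167, 9911, 9664 and 10966 of all genes were called, and no member's call changed in these 4 comparisons, while D2-13B6 against B6 had 7 members called in place of 8; deviations of same-numbered libraries from different groups correlated with a mean r of -0.0108 over 18 pairs, none over 0.1, so the numbers showed no pairing. Of 646 recomputed values of the other genes chosen by the naming rule, 630 were as before and 16 lost their call, all of them Il6ra in D2-13B6 against D2 or Pim2 in D2 against B6. The cause of these changes was not tested.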

Other observations

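Pathway genes on chromosome 11 beyond the 3 members did not move alike in D2-13B6 against D2. Osm rose by 0.98 (SE 0.0826) and Socs7 by 0.62 (SE 0.0685), Stat5a fell by 0.21 (SE 0.0742), and Stat5b had -0.04 (SE 0.0605) and was not called by edgeR. Stat5a and Stat5b had no whole values, so their values are uncertain. Osm also rose in B6-13D2 against B6, by 0.62 (SE 0.0876), where the chromosome as a whole did not stand apart.

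Klf4 and Klf5, Krüppel-like factors of the stem cell network that LIF signalling can raise, differed in direction in B6-13D2 against B6. Klf4 fell by 0.38 (SE 0.0341), from 418 to 322 CPM, and Klf5 rose by 0.44 (SE 0.0341), from 152 to 206 CPM. Both were lower in D2 than in B6, Klf4 at -0.61 (SE 0.0343) and Klf5 at -0.58 (SE 0.0353) on the log2 scale. The genes of this and the preceding paragraph were chosen after their values were seen.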
